A study of Mus musculus with 4 samples.

Results

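Tubulin genes code for the alpha and beta subunits that pair into the building block of microtubules. The 10 tubulin genes described here were taken by name from the deposited table of 55573 genes: 4 alpha genes (Tuba1a, Tuba1b, Tuba1c and Tuba4a) and 6 beta genes (Tubb2a, Tubb2b, Tubb3, Tubb4b, Tubb5 and Tubb6). All 10 passed the filter on low values, as did 11363 genes in all. The measurement was ribosome-protected signal, the amount of RNA shielded by ribosomes from RNase I, in primary myoblasts, proliferating precursors of skeletal muscle cultured from hind-limb muscle. There were 2 wild-type (WT) libraries and 2 libraries labelled eIF5A-KO, all from day 2 of proliferation in medium with 10% fetal bovine serum and 10 ug/ml FGF, and treated with 100 ug/ml cycloheximide, which arrests translating ribosomes. The length of that treatment is given as 10 min in the sample labels and in the methods for polysome profiling, and as 1 min in the methods for ribosome profiling. The cells came from 3-week-old mice, with the knockout induced by tamoxifen in Pax7CreERT2/+;eIF5A f/f animals and WT littermates as controls. Cre driven from Pax7 deletes the gene in satellite cells and their descendants, and other cells of the culture would keep it. Polysome-Seq is the assay named in the sample titles, but ribosome footprints are what the extraction protocol prepares. No label says that the libraries of a group came from separate animals or cultures, so p-values measure only the spread between these libraries, which may be technical.

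An alpha and a beta subunit form a heterodimer, and mammals code for several isotypes of each that differ most at their C-terminal tails. Newly made subunits need prefoldin, the chaperonin CCT (also TRiC) and a set of tubulin cofactors to fold and pair. Cells also hold down their own tubulin synthesis. The factor TTC5 recognises the first residues of a nascent alpha or beta chain on the ribosome and recruits enzymes that degrade the mRNA being translated. In muscle precursors microtubules form the mitotic spindle and are rearranged into parallel arrays when the cells differentiate and fuse. eIF5A is a translation factor that relieves ribosomes stalled at, among other places, runs of prolines.

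The starts of the coding sequences are printed because they code for the residues that TTC5 reads and because they show how little separates some of these genes. The lines give the first 30 coding bases in the GENCODE M21 transcripts of build GRCm38. Capitals mark bases that differ from Tuba1b in the alpha genes and from Tubb5 in the beta genes.
Tuba1a: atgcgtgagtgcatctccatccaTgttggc
Tuba1b: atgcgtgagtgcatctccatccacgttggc
Tuba1c: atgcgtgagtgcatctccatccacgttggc
Tuba4a: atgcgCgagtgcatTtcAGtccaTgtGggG
Tubb2a: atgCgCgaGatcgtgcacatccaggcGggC
Tubb2b: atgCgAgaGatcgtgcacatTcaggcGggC
Tubb3: atgagggaGatcgtgcacatccaggccggC
Tubb4b: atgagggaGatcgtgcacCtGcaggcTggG
Tubb5: atgagggaaatcgtgcacatccaggccgga
Over these 30 bases Tuba1c did not differ from Tuba1b at any base, and Tuba1a differed at 1. A fragment of exactly these bases could not be assigned to Tuba1b or Tuba1c, whereas one that also covers untranslated bases may be. Tuba4a differed from Tuba1b at 7 bases.

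The ends of the coding sequences are printed because the tails distinguish the isotypes and carry the sites of tubulin modification. Tyrosine at the end of alpha tubulin is removed by the vasohibins and put back by tubulin tyrosine ligase, and chains of glutamate are built on glutamates of both tails. The lines give the last 45 coding bases before the stop codon of 2 alpha and 5 beta genes, with glutamate codons (GAA or GAG) in capitals.
Tuba1c: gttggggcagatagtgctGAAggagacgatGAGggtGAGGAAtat
Tuba4a: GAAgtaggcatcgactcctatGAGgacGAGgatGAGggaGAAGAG
Tubb2a: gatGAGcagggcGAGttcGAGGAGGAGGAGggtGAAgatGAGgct
Tubb2b: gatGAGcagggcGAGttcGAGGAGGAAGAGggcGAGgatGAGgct
Tubb3: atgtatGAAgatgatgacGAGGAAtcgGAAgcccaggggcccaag
Tubb4b: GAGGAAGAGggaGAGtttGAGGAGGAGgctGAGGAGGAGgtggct
Tubb5: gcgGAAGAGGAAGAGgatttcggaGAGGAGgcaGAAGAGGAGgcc
Of the 15 codons shown, glutamate took 4 in Tuba1c and 6 in Tuba4a. Among the beta genes it took 10 codons in Tubb4b, 9 in Tubb5, 8 in Tubb2a and in Tubb2b, and 4 in Tubb3. Tuba1c ended in a tyrosine codon, and Tuba4a ended in a glutamate codon without one. These alpha tails lie at chr15:99037962-99038006 (plus strand) for Tuba1c and chr1:75215625-75215669 (minus) for Tuba4a. The beta tails lie at chr13:34074471-34074515 (minus) for Tubb2a, chr13:34127474-34127518 (minus) for Tubb2b, chr8:123421635-123421679 (plus) for Tubb3, chr2:25222311-25222355 (minus) for Tubb4b and chr17:35834985-35835029 (minus) for Tubb5. All are in the last coding exon, and each of the 10 genes has 4 coding exons.

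How much of each coding sequence is unique was measured from the annotation, since it bears on every level below. Each coding sequence was read as overlapping words of 30 bases, about the length of a footprint, and a word was called unique when no transcript of a gene elsewhere held it. Tubb5 was unique at 95.8% of its words, Tubb3 at 94.9%, Tubb6 at 94.0% and Tuba4a at 91.1%. The paralogous pair Tubb2a and Tubb2b was far less so, with 31.2% and 23.7%, as was Tubb4b with 21.7%. Tubb4b shared 862 of its words with the pseudogene Tubb4b-ps1, and no more than 9 with any other tubulin gene named here. Tuba1c was unique at 5.24% (69 of 1318 words), Tuba1a at 6.65% (88 of 1324) and Tuba1b at 2.49% (33 of 1324). Over all protein-coding genes with a coding sequence, 4.56% were unique at fewer than 7% of their words and 77.9% at more than 90%. Tuba1b and Tuba1c shared 1111 words, Tuba1a and Tuba1c shared 978, and Tubb2a and Tubb2b shared 813. Across the whole coding sequence Tuba1a and Tuba1b were identical at 98.3% of bases and Tubb2a and Tubb2b at 96.5%. Words were also shared with 37 annotated pseudogenes, which held 9 reads in all against 2570 on the tubulin genes.

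**Figure D1:**
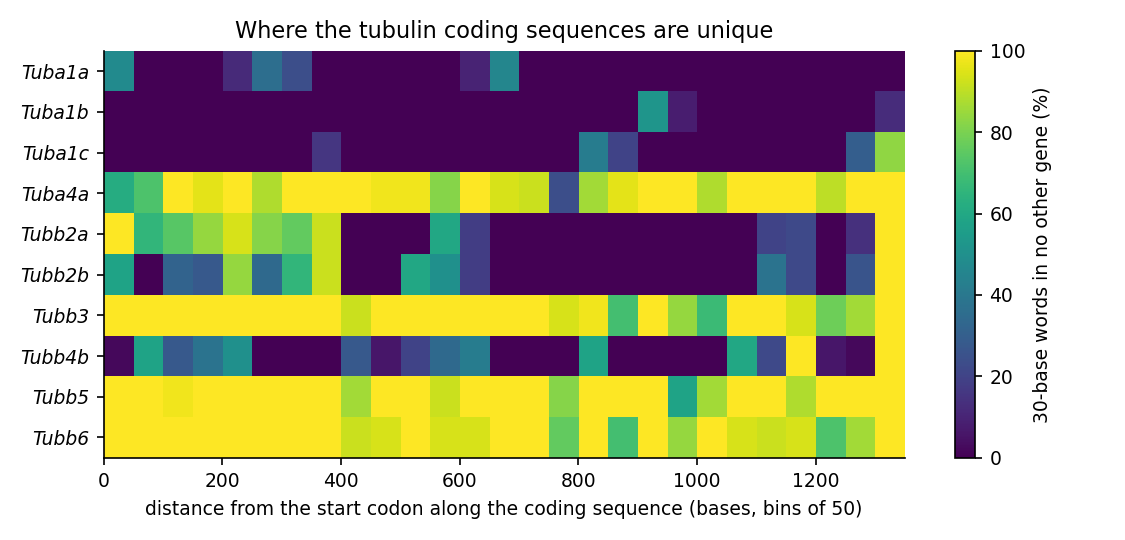
Share of 30-base words found in no other gene (colour, percent) along the coding sequence of each tubulin gene (horizontal axis, distance from the start codon in bases, bins of 50). Tuba4a, Tubb3, Tubb5 and Tubb6 are unique along most of their length, with 91.1% to 95.8% of words, whereas Tuba1a, Tuba1b and Tuba1c are unique in a few short stretches.

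The sources used here do not say how reads that fit several genes were treated. Of the 626 protein-coding genes without any unique coding word, 107 had reads, and their median was 0 reads over the 4 libraries. One of them, the cytoplasmic actin gene Actg1, held 942. The values of Tuba1a, Tuba1b, Tuba1c, Tubb2a, Tubb2b and Tubb4b are therefore uncertain as levels of single genes, and those of Tubb5, Tubb6, Tubb3 and Tuba4a less so.

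The libraries held 642429 to 704006 whole reads, recovered from the deposited RPKM values (reads scaled by gene length and library size). Reads on protein-coding genes made up 33.9% to 41.5% of the WT libraries and 59.2% to 65.4% of those labelled eIF5A-KO. The targeted gene Eif5a had 34.9 and 65.2 RPKM in the WT libraries and 60.3 and 59.4 RPKM in the libraries labelled eIF5A-KO. A value over the whole gene does not separate deleted exons from remaining ones. Both Eif5a values of the libraries labelled eIF5A-KO lay between the 2 WT values, so a loss was not seen. These libraries are called KO-labelled libraries throughout. Of the myoblast markers, Des had 46.0 and 40.1 RPKM in WT and 13.8 and 21.4 RPKM in the KO-labelled pair, and Myod1 had 139.9 and 117.5 RPKM against 48.6 and 79.8 RPKM. Of the 9 tested markers on that list, 8 had a log2 difference below 0 and 1 above. WT library 1 stood apart in Myog, the transcription factor of differentiating muscle, with 82 reads against 3 in WT library 2 and 1 and 2 in the KO-labelled pair. In bulk footprint libraries, fewer cells of a type, less RNA per cell and fewer ribosomes per RNA cannot be told apart.

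Tubulin genes together took 0.109% (95% Wilson interval 0.0971 to 0.122) and 0.189% (0.172 to 0.208) of the protein-coding reads in WT libraries 1 and 2. In the KO-labelled pair they took 0.239% (0.225 to 0.253) and 0.199% (0.186 to 0.214). These intervals cover counting error only. WT library 1 was the lowest, and the intervals of WT library 2 and KO-labelled library 2 overlapped. The log2 difference of this share was 0.60, with an exact two-sided permutation p of 0.333, the smallest p that 2 libraries against 2 can give.

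Tubb5 had the highest RPKM of the tubulin genes. This gene codes for the widely expressed beta isotype of dividing cells. It had 80.3 and 144.2 RPKM in WT and 229.0 and 179.0 RPKM in the KO-labelled pair, from 161, 226, 691 and 481 reads. It ranked first of the 10 genes in each of the 4 libraries, and its mean of 158.1 RPKM lay above 99.1% of the tested protein-coding genes. Both KO-labelled libraries were above both WT libraries. The means were 112.2 ± 45.2 (SD, n = 2) and 204.0 ± 35.4 RPKM, and the difference was 0.91 on the log2(RPKM + 1) scale (SE 0.53, 95% interval -0.39 to 2.20, adjusted p = 0.697 in limma). The difference did not pass the test, and its interval reached from a small loss to more than a gain of 2 log2 units. The fit that dropped WT library 1 gave 0.49 and the one that dropped WT library 2 gave 1.32.

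Tubb2a, another beta isotype, had 18.5 and 52.7 RPKM in WT and 58.2 and 66.1 RPKM in the KO-labelled pair, from 18, 40, 85 and 86 reads. The groups did not overlap, though WT library 2 lay close to KO-labelled library 1. The log2 difference was 0.96 (SE 0.59, adjusted p = 0.697 in limma), with 0.23 when WT library 1 was left out and 1.69 when WT library 2 was. Tubb2b, its near-identical neighbour on chromosome 13, had 8.68 and 19.4 RPKM in WT and 13.9 and 10.3 RPKM in the KO-labelled pair, from 12, 21, 29 and 19 reads. Here the KO-labelled pair lay between the WT libraries, and the log2 difference was -0.12 (SE 0.50).

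Tubb6, a widely expressed beta isotype, had 38.1 and 54.0 RPKM in WT and 82.3 and 52.3 RPKM in the KO-labelled pair, from 56, 62, 182 and 103 reads. KO-labelled library 1 was the highest and KO-labelled library 2 was just under WT library 2, so the groups overlapped. The log2 difference was 0.52 (SE 0.47, adjusted p = 0.732 in limma), with 0.20 when KO-labelled library 1 was left out and 0.85 when KO-labelled library 2 was.

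Tubb4b, another of the widely expressed beta isotypes, had 11.1 and 15.2 RPKM in WT and 14.3 and 12.5 RPKM in the KO-labelled pair, from 14, 15, 27 and 21 reads. Both KO-labelled libraries lay inside the WT range, and the log2 difference was 0.03, with a 95% interval of -0.93 to 0.99. The interval still holds a change of close to 1 log2 unit either way. Tubb3, the beta isotype known as a neuronal marker, had 1, 2, 4 and 1 reads in the order WT 1, WT 2, KO-labelled 1 and KO-labelled 2. That is 0.888 and 2.27 RPKM against 2.36 and 0.663 RPKM, and no difference was detectable at this depth. Of 13 neuron markers, 5 (Rbfox3, Nefl, Elavl3, Elavl4 and Stmn2) were listed at 0 in all 4 libraries, and 2 had enough signal to be tested. The list summed to 13.0 and 35.8 RPKM in WT and 31.8 and 31.1 RPKM in the KO-labelled pair, most of it from Uchl1, a deubiquitinase abundant in neurons, with 10.2 and 32.5 RPKM against 30.4 and 30.3 RPKM.

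Among the alpha genes Tuba1c had the most reads. It had 1.45 and 25.1 RPKM in WT and 17.4 and 14.1 RPKM in the KO-labelled pair, from 2, 27, 36 and 26 reads. WT library 1 alone was low, and the other WT library was the highest of the 4. The log2 difference of 1.06 (SE 1.06, adjusted p = 0.749 in limma) therefore followed WT library 1, and without it the difference was -0.65. Tuba1a, the alpha isotype best known from developing neurons, ran the other way, with 13.8 and 2.35 RPKM in WT and 2.45 and 4.81 RPKM in the KO-labelled pair, from 15, 2, 4 and 7 reads. Its log2 difference was -0.66 (SE 0.75), and without WT library 1 it was 0.42. Leaving out WT library 1 thus turned the direction of both genes.

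Taken against each other, Tuba1c held 11.8% (95% Wilson interval 3.29 to 34.3) of the reads on Tuba1a and Tuba1c in WT library 1. It held 93.1% (78.0 to 98.1) in WT library 2 and 90% (76.9 to 96.0) and 78.8% (62.2 to 89.3) in the KO-labelled pair. The interval of WT library 1 overlapped none of the others, and a share within a library does not depend on the scaling. That library had 17 reads on the pair. The intervals cover counting error only, and not how reads were assigned between these genes, which share 978 words. This is the same library that stood apart in Myog, and its 14 markers of differentiated muscle summed to 326.6 RPKM against 77.0, 45.2 and 45.6 RPKM in WT library 2 and the KO-labelled pair. Their part in the split was not tested.

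Tuba1b, the main alpha isotype of many dividing cells, had 0, 3, 6 and 0 reads in the order WT 1, WT 2, KO-labelled 1 and KO-labelled 2, or 0 and 3.40 RPKM against 3.53 and 0 RPKM. In each group 1 library was at 0, which allows up to 3 reads, so no order can be read from these values. With 2.49% of its words unique, this gene was also the one most exposed to the treatment of shared reads. Tuba4a, an alpha isotype made without the final tyrosine, had 6.27 and 8.03 RPKM in WT and 10.1 and 7.69 RPKM in the KO-labelled pair, from 14, 14, 34 and 23 reads. The groups overlapped, and the log2 difference was 0.28 (SE 0.38), between 0.10 and 0.46 with any 1 library left out.

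**Figure D2:**
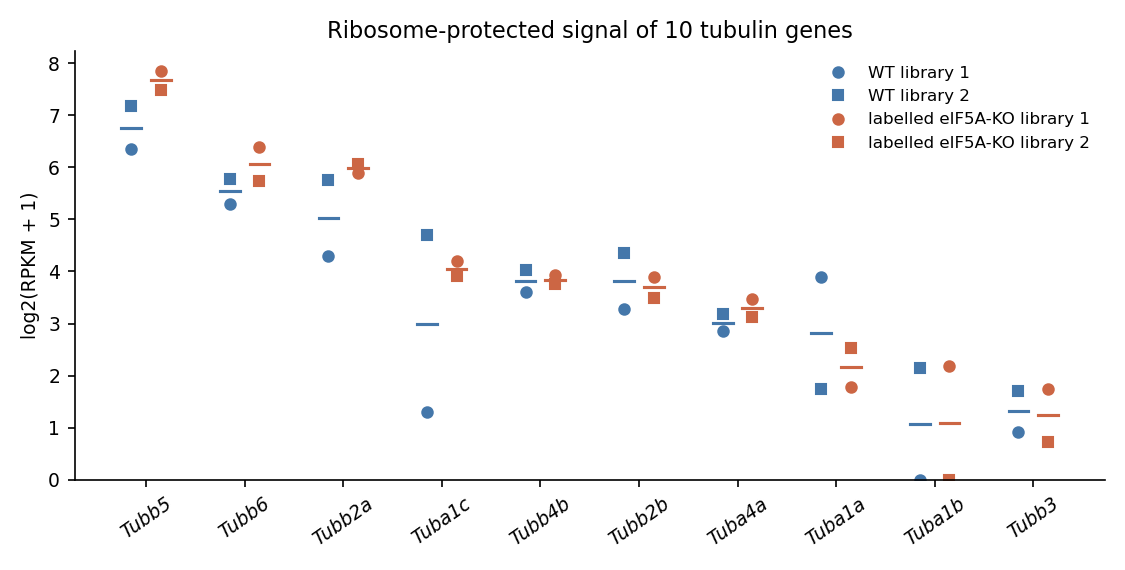
Ribosome-protected signal of each tubulin gene (vertical axis, log2(RPKM + 1)) in the 4 libraries, with WT in blue, the libraries labelled eIF5A-KO in orange, and bars at the group means (n = 2). Tubb5 is highest in each library (80.3 to 229.0 RPKM), and WT library 1 sits apart from the other 3 in Tuba1c (low) and Tuba1a (high).

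In order of mean level over the 4 libraries, the genes were Tubb5 (158.1 RPKM), Tubb6 (56.7), Tubb2a (48.9), Tuba1c (14.5), Tubb4b (13.3), Tubb2b (13.1), Tuba4a (8.03), Tuba1a (5.85), Tuba1b (1.73) and Tubb3 (1.55). Every pair of neighbours in this order had overlapping ranges. Within libraries, by RPKM per gene length, the order ran with Tubb5 first in all 4, Tubb6 second in 3 and below Tubb2a in KO-labelled library 2, and Tubb2a taking the other place each time. Tuba1c ranked 8 in WT library 1 and 4 in the others, and Tuba1a ranked 4 in WT library 1 and 8 or 9 in the others. The order depends on the length used. Per unique word of the transcript Tubb5 was still first in all 4, but Tubb2a was above Tubb6 in WT library 2 and in both KO-labelled libraries, and in the mean (115.5 against 83.7). Per 1000 unique words of the coding sequence Tuba1c came first, at a rate of 1319, and Tubb5 next at 1249. The rate of Tuba1c sets all 91 reads of the gene over its 69 such words. Those reads need not lie in these words.

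None of the 10 genes was called in limma at an adjusted p under 0.05, where 0.106% of all tested genes were (12 of 11363). Over the alternatives that count for all tested genes ran from 0, with the replicate block among others, to 38 in limma-voom. The members' adjusted p-values ran from 0.697 to 0.996. At an unadjusted p under 0.05, 0 of 10 were higher and 0 of 10 were lower in the KO-labelled pair, against 2.86% and 4.46% of all tested genes. limma-voom on the recovered reads, which could test 8 of the 10, also called 0, at an adjusted or an unadjusted p. Tubb5 and Tubb2a, 2 of 10, had both KO-labelled libraries above both WT libraries, as did 20.1% of all tested genes, and 0 of 10 had both below, as did 20.3%. The median log2 difference was 0.15 over the 10 genes, 0.15 over the alpha genes and 0.28 over the beta genes, beside 0.05 over all tested protein-coding genes.

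**Figure D3:**
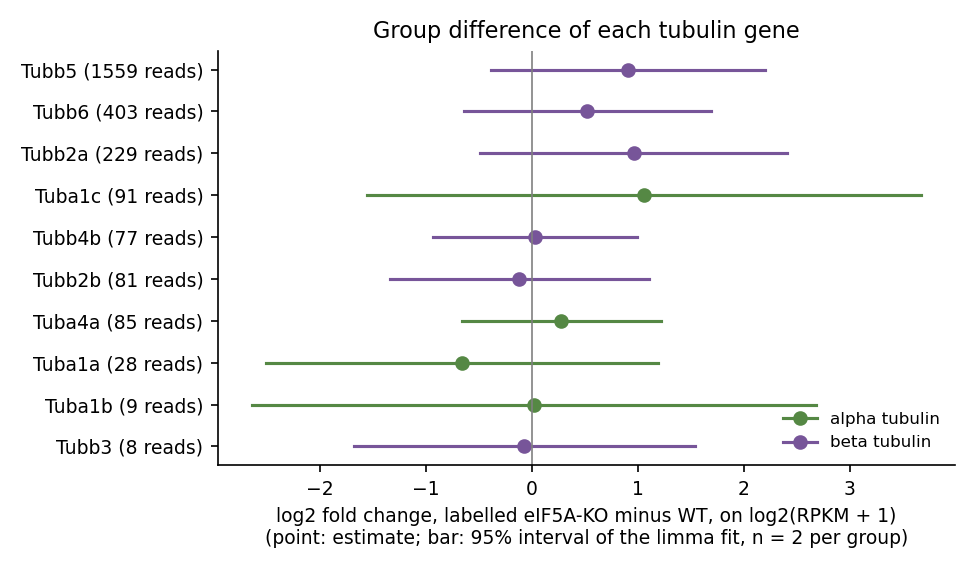
Log2 difference of each tubulin gene, libraries labelled eIF5A-KO minus WT, on the log2(RPKM + 1) scale, with the 95% interval of the limma fit (n = 2 per group) and the reads over all 4 libraries beside the name. All 10 intervals include 0, and the widest belong to Tuba1a, Tuba1b and Tuba1c.

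Summed over the family, beta tubulin signal was 157.6 and 287.9 RPKM in WT and 400.1 and 320.8 RPKM in the KO-labelled pair. The groups did not overlap, and the log2 difference was 0.75 (exact permutation p = 0.333). Alpha tubulin signal summed to 21.5 and 38.8 RPKM in WT and 33.5 and 26.6 RPKM in the KO-labelled pair, a log2 difference of 0.04 (exact permutation p = 1) with the WT libraries on either side. The log2 differences of sums compare means of log2 values. The plain means of the alpha sum were 30.2 RPKM in WT and 30.0 RPKM in the KO-labelled pair, in the other direction. Leaving out 1 library at a time gave log2 differences from -0.38 (without WT library 1) to 0.47 (without WT library 2), so the direction for alpha turned. All tubulin genes together differed by 0.68, from 0.25 to 1.12 on the same omissions. Without WT library 1 the beta difference was 0.32, and without WT library 2 it was 1.18.

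The ratio of summed beta to summed alpha signal, which does not depend on how libraries are scaled to each other, was close between replicates. It was 7.32 and 7.41 in WT and 11.96 and 12.07 in the KO-labelled pair. The group gap was 0.71 on the log2 scale and the exact permutation p was 0.333, the smallest possible. The alpha sums rest on few reads, 31 and 46 in WT and 80 and 56 in the KO-labelled pair. As a share of all tubulin reads, alpha reads were 10.6% (95% Wilson interval 7.55 to 14.6) and 11.2% (8.48 to 14.6) in WT and 7.29% (5.89 to 8.98) and 7.30% (5.67 to 9.36) in the KO-labelled pair. The intervals of each WT library overlapped those of both KO-labelled libraries. Alpha and beta subunits are used one to one, so the level of this ratio was compared under other lengths. Dividing reads by the unique words of the transcript in place of the gene length gave 4.48 and 3.89 in WT and 6.08 and 7.45 in the KO-labelled pair, and the groups stayed apart. Dividing by the unique words of the coding sequence gave 1.46 and 0.875 against 1.42 and 1.72, and the groups then overlapped. With only the members unique at over 90% of their words, Tuba4a against Tubb3, Tubb5 and Tubb6, the ratio was 19.0 and 25.0 in WT and 30.97 and 30.15 in the KO-labelled pair, with WT library 2 about as far from WT library 1 as from that pair. The level of the ratio thus ran from 0.875 to 30.97 with the length and the genes used, and is not read as the ratio of subunits made. The last 2 of these were added after the data had been seen.

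**Figure D4:**
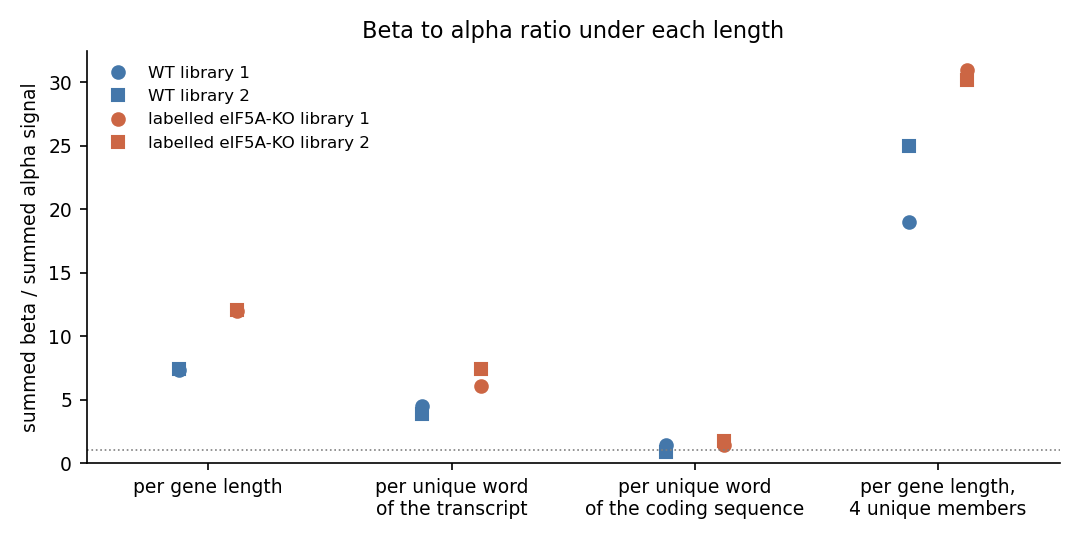
Summed beta over summed alpha tubulin signal (vertical axis, ratio) in the 4 libraries under 4 ways of counting length or genes, with a dotted line at 1. Per gene length the WT libraries are at 7.32 and 7.41 and those labelled eIF5A-KO at 11.96 and 12.07, and per unique word of the coding sequence the groups overlap.

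Within the beta genes Tubb5 took 50.9% and 50.1% of the summed RPKM in WT and 57.2% and 55.8% in the KO-labelled pair, a gap of 6.01 percentage points that held between 5.29 and 6.73 when any 1 library was left out. Tubb2b took 5.51% and 6.75% in WT and 3.48% and 3.20% in the KO-labelled pair. Tubb4b took 7.06% and 5.30% against 3.56% and 3.88%. For each of these 3 genes the groups did not overlap and the exact permutation p was 0.333. As shares of beta reads, Tubb5 held 61.5% (95% Wilson interval 55.4 to 67.1) and 61.7% (56.7 to 66.6) in WT and 67.9% (64.9 to 70.7) and 67.7% (64.1 to 71.0) in the KO-labelled pair. These intervals overlapped between the groups. Shares of Tubb2a, Tubb3 and Tubb6 overlapped between groups. Shares within a family sum to 100%, so a higher share of Tubb5 goes with lower shares of others by construction.

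Within the alpha genes Tuba4a, the most nearly unique of them, took 29.2% and 20.7% of the summed RPKM in WT and 30.3% and 29.0% in the KO-labelled pair. Tuba1c took 6.74% in WT library 1 and 64.5%, 51.9% and 53.0% in the other libraries, and Tuba1a took 64.1% in WT library 1 and 6.06%, 7.31% and 18.1% in the others. In the shares of Tuba1a and Tuba1c, though not of Tuba4a, the 2 WT libraries differed more from each other than WT library 2 did from the KO-labelled pair.

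**Figure D5:**
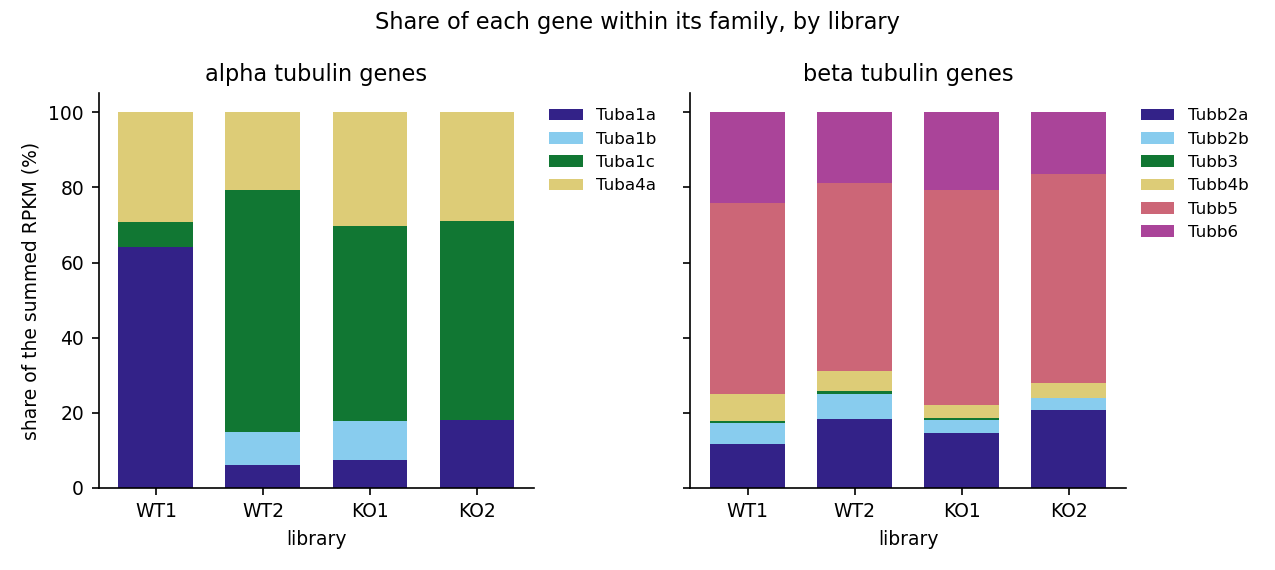
Share of each gene in the summed RPKM of the alpha genes (left) and of the beta genes (right), in percent, by library. Tubb5 takes 50.1% to 57.2% of the beta signal in each library, and in the alpha genes WT library 1 is led by Tuba1a (64.1%) and the other 3 libraries by Tuba1c (51.9% to 64.5%).

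The 10 proteins had features in common that the choice of genes did not use. The coding sequences ran to between 444 and 451 residues. Each held a longest run of 2 prolines, in 1 place, and 0 runs of 3. Coding GC content ran from 54.5% in Tuba1a to 58.8% in Tubb6, above the median of 53.2% over tested protein-coding genes. The 2410 tested genes in that GC range had a median log2 difference of -0.13. With the linear trend on coding GC removed, the differences of Tubb5, Tubb2a and Tubb6 were 1.03, 1.13 and 0.74.

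Outside the 10, 10 further tubulin genes were looked up. Tuba3a, Tuba8, Tubal3 and Tubb1 were listed at 0 in all 4 libraries, and Tuba3b had 1 read. Tubb4a, a beta isotype of brain, had 4, 5, 6 and 7 reads. Tubg1, the gamma tubulin that starts new microtubules, had 6.59 and 6.56 RPKM in WT and 6.81 and 11.5 RPKM in the KO-labelled pair, with a log2 difference of 0.38 (SE 0.41, adjusted p = 0.762 in limma). Both KO-labelled libraries were above WT, the first by little. This order was seen in 3 of the 4 of these genes that could be tested, beside 20.1% of all tested genes. Among the 3 were Tubg2, with 1, 1, 3 and 2 reads, and Tubd1, with 1, 1, 2 and 2, whose order rests on single reads. Tubg2, Tubd1 and Tube1 had 7, 6 and 15 reads over all 4 libraries.

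The genes that fold tubulin and watch its level were listed apart. Of 14 tubulin cofactors, prefoldin subunits and autoregulation genes, 14 were tested, 0 passed an adjusted p under 0.05 and 1 was higher at an unadjusted p under 0.05, beside 2.86% of all tested genes. Their median log2 difference was 0.23, with 10 above 0 and 4 below. That 1 gene was Tbcd, the cofactor that handles beta tubulin during dimer assembly, with 2.05 and 3.15 RPKM in WT and 7.08 and 5.96 RPKM in the KO-labelled pair. Its log2 difference was 1.08 (SE 0.38, adjusted p = 0.672 in limma). The prefoldin subunit Vbp1 had 7.78 and 8.96 RPKM against 14.0 and 17.4 RPKM (adjusted p = 0.676 in limma). Tbca, a cofactor that holds beta tubulin, had 40.9 and 49.7 RPKM against 68.0 and 79.4 RPKM (adjusted p = 0.697 in limma). These 3 were named for the smallest p in the list. Over the whole list both KO-labelled libraries were above both WT libraries in 5 of 14 and below in 1, beside 20.1% and 20.3% of all tested genes.

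All 8 subunits of the chaperonin CCT had a log2 difference above 0, with a median of 0.90, and in 7 of 8 both KO-labelled libraries were above both WT libraries. Over all tested genes 50.01% were above 0 and 20.1% had the groups apart in this direction. None passed at an adjusted or an unadjusted p under 0.05. Cct8 had 40.3 and 126.5 RPKM in WT and 170.0 and 170.0 RPKM in the KO-labelled pair. Tcp1 had 21.4 and 35.02 RPKM against 54.1 and 50.2 RPKM, and Cct3 had 16.4 and 51.0 RPKM against 69.2 and 60.3 RPKM. Their sum was 271.5 and 642.8 RPKM in WT and 787.7 and 813.3 RPKM in the KO-labelled pair. As for the summed beta tubulin signal, WT library 1 was the lowest and WT library 2 the next.

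Tubulin-modifying enzymes had a median log2 difference of -0.14 over the 11 of 16 that were tested, with 1 lower at an unadjusted p under 0.05, beside 4.46% of all tested genes. This was Svbp, the chaperone of the vasohibins that remove the tyrosine of alpha tubulin, with 14.0 and 14.0 RPKM in WT and 6.21 and 6.98 RPKM in the KO-labelled pair, from 6 to 9 reads a library (log2 difference -0.98, SE 0.36, adjusted p = 0.672 in limma). Vash2, a vasohibin, had 3.08 and 5.41 RPKM against 1.79 and 1.72 RPKM, from 6 to 11 reads. Ttll12, of the tubulin tyrosine ligase-like family, had 10.7 and 9.98 RPKM against 6.28 and 8.58 RPKM. These 3 were named for the smallest p in the list. Of the 11 tested, both KO-labelled libraries were below both WT libraries in 4 and above in 1, beside 20.3% and 20.1% of all tested genes.

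The 11 microtubule nucleation genes had a median of 0.15, with 7 above and 4 below 0. At an unadjusted p under 0.05 there were 0, beside 2.86% higher and 4.46% lower of all tested genes. Those with the smallest p were Mzt1, Tubgcp3 and Tubgcp4, parts of the gamma-tubulin ring complex, with log2 differences of 0.78, 0.98 and 0.69. The groups overlapped in Mzt1, with 4.97 RPKM in WT library 2 and 4.73 RPKM in KO-labelled library 1, and Tubgcp3 had 1 read in WT library 1. The genes that bind microtubules or set their dynamics had a median of 0.17 over 21 tested, with 2 higher and 0 lower at an unadjusted p under 0.05, beside 2.86% and 4.46% of all tested genes. These were Tpx2, a spindle assembly factor, with 1.42 and 3.63 RPKM in WT and 7.31 and 6.62 RPKM in the KO-labelled pair, and Katna1, the severing subunit of katanin, with 4.53 and 4.83 RPKM against 8.04 and 14.7 RPKM. Clip2, a plus-end protein, had 14.4 and 9.82 RPKM against 4.25 and 8.59 RPKM.

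Motor genes had a median of 0.14 over 20 tested, with 10 above and 10 below 0 and 1 higher at an unadjusted p under 0.05, beside 2.86% of all tested genes. That 1 gene was Dync1i2, an intermediate chain of cytoplasmic dynein, with 7.41 and 8.97 RPKM in WT and 23.2 and 16.3 RPKM in the KO-labelled pair (log2 difference 1.16, SE 0.40, adjusted p = 0.668 in limma). Kif1c, a kinesin, had 18.7 and 12.3 RPKM against 3.79 and 10.2 RPKM, and Klc2, a kinesin light chain, had 7.62 and 4.62 RPKM against 2.13 and 5.09 RPKM.

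Marker lists of cell state and cell type are given beside the tubulin genes, and their part in the tubulin values was not tested. The 23 proliferation markers, all tested, summed to 88.7 and 189.6 RPKM in WT and 243.5 and 212.9 RPKM in the KO-labelled pair. Of these, 20 were above 0 and 3 were higher at an unadjusted p under 0.05 (Ube2c, Ccna2 and Rrm1), with a median log2 difference of 0.82. Over all tested genes 50.01% were above 0, 2.86% were higher and 4.46% were lower at an unadjusted p under 0.05. The 10 myoblast markers summed to 260.7 and 210.0 RPKM against 120.3 and 134.6 RPKM, with a median of -1.03 and 4 of 9 tested lower at an unadjusted p under 0.05, Chrna1, Pax7 and Des among them. Of those 9, 8 were below 0 and 1 was above. The differentiated muscle markers had a median of -1.40 over 8 of 14 tested, and 3 (Mylpf, Actc1 and Myog) were lower at an unadjusted p under 0.05. Fibroblast markers summed to 640.8 and 374.1 RPKM in WT and 943.0 and 459.8 RPKM in the KO-labelled pair, with 12 of 14 tested, a median of 0.45 and 1 higher at an unadjusted p under 0.05 (Postn). Of those 12, 9 were above 0 and 3 were below. Fbn1 had 15.9 and 14.5 RPKM against 63.0 and 23.4 RPKM, and Lum had 16.9 and 8.67 RPKM against 40.1 and 20.7 RPKM. Endothelial markers summed to 261.1 and 395.9 RPKM against 364.4 and 449.3 RPKM, with 1 higher (Kdr) and a median of 0.39. Among the 9 tested, 7 were above 0 and 2 were below. Emcn and Tek had log2 differences of 0.69 and 0.57. Immune markers had a median of -0.36 over 5 of 10 tested, with Adgre1 higher and Lyz2 lower at an unadjusted p under 0.05 and Itgam and Cd3e listed at 0. Cd14 had a log2 difference of 0.47. The 9 Schwann cell markers had a median of 0.02 and 0 at an unadjusted p under 0.05, with log2 differences of -0.56 for Foxd3, 0.50 for Erbb3 and 0.29 for Sox10.

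The pattern over the 4 libraries most like that of the summed tubulin signal was sought among 384 protein-coding genes averaging 50 RPKM or more, by the Euclidean distance of centred log2(RPKM + 1) values. The nearest were Bcap31 (distance 0.0983), Elob (0.0984), Msn (0.135), Prdx5 (0.150) and Csf1 (0.155). Bcap31, an endoplasmic reticulum membrane protein, had 32.7 and 64.4 RPKM in WT and 87.7 and 66.0 RPKM in the KO-labelled pair. Msn, which codes for moesin, a linker of actin to the membrane, had 61.3 and 110.04 RPKM against 163.8 and 128.2 RPKM. With 4 libraries such a likeness describes these libraries only.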

How the data were processed

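Ribosome-protected fragments of 2 WT and 2 libraries labelled eIF5A-KO were analysed. The authors removed low-quality, rRNA and tRNA reads, mapped with TopHat2 to mm10, counted with HTSeq and deposited RPKM values per gene. The treatment of reads that fit several genes is not given in the sources used here. RPKM times gene length gave whole multiples of 1 step for 100% of values above 0 (tolerance 0.1 read), so reads were recovered. The library sizes that the deposited values imply (471136 to 906990) were not the read totals. limma 3.58.1 (R 4.3.3; lmFit, eBayes with trend) was run on log2(RPKM + 1), keeping genes that averaged 1 RPKM or more, with Benjamini-Hochberg adjustment over all of them. A difference on this scale understates the change of low genes. The script was tested on simulated data. Sums, ratios and shares were compared by exact permutation tests, and intervals of shares are 95% Wilson intervals. Words, coding sequences and identities were computed in Python 3.11.15 from GENCODE M21, which held 99.8% of the gene identifiers. The remaining coding ends are not reported here.

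All members were named. From each other list the genes at an adjusted p under 0.05 were named, or else up to 3 of at least 20 reads with the smallest p, and 5 genes by likeness to the summed tubulin signal. Des, Myod1 and Myog were named as markers, and Actg1, Tubg2, Tubd1 and Tube1 after their values were seen. The members and lists were chosen with earlier results of these data known. Same-numbered libraries deviated together with a correlation of 0.06. Alternatives covered the pseudocount, the filter, scaling, GC content, the replicate block and each library left out.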

Additional observations from a re-analysis of the deposited data

How the results depend on the processing

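None of the 10 tubulin genes passed an adjusted p under 0.05 in the fit reported or in any alternative that could test it, 126 values in all, of which 109 kept their direction. Scaling to the same sum over all genes moved the median of all tested genes to 0.84 and, with it, the members' median to 1.13. This scaling put 4 members higher at an unadjusted p under 0.05. The share of all tested genes at that threshold is not given for it, so the count is not read as a result about the members. It gave 0.086 for Tuba1a, 0.89 for Tubb2b, 0.60 for Tubb3, 1.13 for summed alpha, 1.83 for summed beta and 1.76 for whole tubulin. Equal totals on the protein-coding genes gave -0.10 for Tubb4b and -0.10 for summed alpha. Quantile normalization gave 0.011 for Tubb3 and put 1 member higher at an unadjusted p under 0.05, again without a share over all tested genes. With the coding GC trend removed, Tubb2b stood at 0.031 and Tubb3 at 0.14.

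With 1 library left out, the lone library is assumed to vary like the other group. The members' median then ran from -0.029 to 0.65, and 0 to 3 members were higher at an unadjusted p under 0.05, the 3 only without WT replicate 2. Differences ran from -1.73 to 0.42 for Tuba1a, -1.07 to 1.11 for Tuba1b, -0.65 to 2.76 for Tuba1c, -0.66 to 0.42 for Tubb2b, -0.58 to 0.44 for Tubb3 and -0.18 to 0.24 for Tubb4b. The replicate block gave the same median of 0.15 and 0 calls among the members and changed no call of theirs, while over all tested genes it took the calls from 12 to 0. Replicate numbers are shared only as numbers.

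The log2 group difference of the beta to alpha ratio was 0.69 per unique transcript word and, as alternatives added after seeing the data, 0.47 per unique coding word and 0.49 over members unique at over 90%. Per unique transcript word the Tubb4b share differed by -5.24 percentage points. With unique coding words (added later) of 30, 26, 28 and 32 bases, the Tuba4a share differed by -0.055, 0.010, -0.032 and -0.11 points, Tubb2b by -5.79, -5.92, -5.86 and -5.70, Tubb4b by -5.03, -5.54, -5.25 and -4.86, and Tubb5 by 7.72, 7.92, 7.80 and 7.64. The cause of these shifts was not tested beyond the change of length. Tuba1b and Tubb3, with 9 and 8 reads, are limited by depth.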
